A study of Mus musculus with 22 samples.

Results

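The genes described here are Tff3, Cyp17a1, Cib3, Mmd2, Abhd2, Got1, Gstm3, Vcam1 and Apoa4, 9 of the 19505 named genes on the arrays. They were chosen by their measured values in these same livers, because they stood apart between arrays together with Tff3. How far they separate the arrays and how closely they move together is therefore a description, with no test. The question asked of them is which livers are high, whether the same livers are high for each gene, and whether any of the genes follows the time of day. In 5 of the 22 livers every one of the 9 genes lay above the livers of the same time outside these 5. Over all features 4.76% showed this pattern. In the remaining 17 livers the median correlation between the genes was 0.13.

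The samples were livers of male mice in which the adiponectin gene Adipoq is inactivated in the whole body (B6;129-Adipoqtm1Chan/J, kept on C57BL/6J), aged 3 to 8 months, housed in groups with free access to chow. Lights were on for 12 h and off for 12 h, and mice were killed by cervical dislocation at 6 times given as zeitgeber time, the hours since lights on. There were 4 livers at ZT2, 3 at ZT6 and 4 at ZT10, in the light, and 4 at ZT14, 3 at ZT18 and 4 at ZT22, in the dark. A letter tells the livers of one time apart, as in ZT6b. Every liver carries the same knockout, so none of the values measures an effect of losing adiponectin, and wild-type livers were not analysed here. Each array was taken as 1 mouse, since the labels speak of 3 to 4 mice a time, so p-values rest on the spread between such samples.

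RNA was measured on Clariom S arrays, and the values are on a log2 scale, so that a difference of 1 is a factor of 2. Adipoq itself measured 3.30 to 4.69 with a median of 3.62, and in 14 of 22 livers it did not exceed the array's lower quartile. Where its probes lie relative to the deleted part is not known here, so this level does not check the genotype. The lower quartile of an array lay between 3.67 and 3.91, and levels near it cannot be told from background. Array medians were 5.29 to 5.35 in the 5 livers and 5.28 to 5.36 in the other 17, and Pearson's r between arrays ranged from 0.976 to 0.994. Hepatocyte markers summed to 22.18 to 22.37 in all livers, and 0 of the 9 measured markers had a median at the lower quartile.

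The 9 genes belong to different families. Tff3 encodes a small secreted trefoil peptide best known from mucus-producing epithelia, and Apoa4 encodes an apolipoprotein carried on lipoproteins, whose transcript in liver is known to respond to fasting and lipid load. Cyp17a1 encodes the steroid hydroxylase and lyase on the way to androgens, Got1 the cytosolic aspartate aminotransferase of the malate-aspartate shuttle, Gstm3 a mu class glutathione S-transferase and Abhd2 a membrane hydrolase that acts on lipids. Cib3 encodes a member of the calcium and integrin binding proteins, Mmd2 a membrane protein of the family that also holds the adiponectin receptors, and Vcam1 an adhesion molecule of endothelium that binds leukocyte integrins.

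The promoters of the members are shown because the genes were chosen for moving together, and a reader can set their start regions side by side. Start regions credited to RefSeq (GRCm38.p6) were at hand for 6 of the 9, and those of Tff3, Cyp17a1 and Vcam1 were not used here. For 4 of the 6, Abhd2, Got1, Gstm3 and Apoa4, it begins at the end of the annotated gene, and the 250 bases before the start are printed, 5′ to 3′. The entries of Cib3 and Mmd2 start inside the annotated gene and are not shown. Capitals mark matches to a searched motif on either strand.
Abhd2: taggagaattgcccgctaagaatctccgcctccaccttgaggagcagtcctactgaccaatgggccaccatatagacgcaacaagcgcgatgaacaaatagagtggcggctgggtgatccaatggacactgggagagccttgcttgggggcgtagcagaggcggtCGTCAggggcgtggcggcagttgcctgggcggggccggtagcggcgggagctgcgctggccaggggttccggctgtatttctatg
Got1: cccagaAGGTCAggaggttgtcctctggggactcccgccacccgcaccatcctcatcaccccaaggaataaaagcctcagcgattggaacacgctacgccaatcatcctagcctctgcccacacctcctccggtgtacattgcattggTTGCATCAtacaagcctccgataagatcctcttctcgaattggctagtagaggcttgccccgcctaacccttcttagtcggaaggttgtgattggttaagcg
Gstm3: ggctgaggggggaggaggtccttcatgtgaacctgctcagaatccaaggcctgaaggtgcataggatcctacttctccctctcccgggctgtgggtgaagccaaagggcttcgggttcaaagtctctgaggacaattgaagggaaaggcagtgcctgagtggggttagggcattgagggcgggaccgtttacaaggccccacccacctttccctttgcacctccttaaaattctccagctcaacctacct
Apoa4: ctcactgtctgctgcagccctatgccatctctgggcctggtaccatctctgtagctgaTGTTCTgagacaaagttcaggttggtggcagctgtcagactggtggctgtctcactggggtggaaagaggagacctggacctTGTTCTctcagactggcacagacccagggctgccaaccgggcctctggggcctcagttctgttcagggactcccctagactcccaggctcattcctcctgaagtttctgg
The Abhd2 window is chr7:79273016-79273265 on the plus strand, the Got1 window chr19:43524606-43524855 on the minus strand, the Gstm3 window chr3:107969175-107969424 on the minus strand and the Apoa4 window chr9:46240594-46240843 on the plus strand.

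Got1 held TTGCATCA, a match on the minus strand to the amino acid response element TGATGNAA, at positions -102 to -95, where -1 is the base before the start. This element occurred in 3.45% of all 32851 RefSeq start regions of the same length. Got1 also held AGGTCA, the core of nuclear receptor sites, at -244 to -239, which 14% of all regions hold. Abhd2 held CGTCA, the reverse complement of TGACG, at -85 to -81. TGACG is the core of the cAMP response element, lies within the full element TGACGTCA, and occurred in 17.8% of regions. Apoa4 held TGTTCT, the reverse complement of the glucocorticoid receptor core AGAACA, at -192 to -187 and at -110 to -105. This core occurred in 16.1% of regions. The other motifs searched were TGACGTCA (1.55% of regions), the E-box CACGTG (6.02%), the D-box TTATGTAA or TTACGTAA (0.931%), the STAT site TTCNNNGAA (7.02%), the forkhead site TGTTTAC (3.17%), the HNF4 site CAAAGTCCA (0.384%) and the TATA box TATAAA (12.4%). None of these was found in the 4 windows, and the Gstm3 window held no match to any motif. No motif was shared by 2 of the 4 windows.

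Tff3 set the 5 livers apart most widely. It measured 13.63 in ZT14d, 13.26 in ZT14b, 11.60 in ZT6c, 11.42 in ZT22a and 10.35 in ZT6b. In the light it measured 4.32, 4.64, 3.57 and 3.88 in the 4 livers of ZT2, 2.49 in ZT6a, and 4.57, 3.17, 4.73 and 3.68 in those of ZT10. In the dark it measured 3.08 in ZT14a, 3.25 in ZT14c, 2.31, 2.97 and 2.33 at ZT18, and 3.84, 2.95 and 2.5 in ZT22b to ZT22d. The high livers were 2 of 3 at ZT6, 2 of 4 at ZT14 and 1 of 4 at ZT22, and 0 of 11 at ZT2, ZT10 and ZT18. The lowest high liver lay 5.62 above the highest of the other 17, a factor of 49.2. In 12 of the 17 the value did not exceed the array's lower quartile, so Tff3 ranged from background to a clearly measured transcript. In whole liver, more cells that make a transcript and more transcript per cell cannot be told apart. The SD of Tff3 within times was 3.62, the highest of all 22206 features, whose median was 0.32.

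Apoa4, the other secreted product, was well above background in every liver and separated the 5 by little. It measured 16.07 in ZT14b, 16.06 in ZT6b, 15.53 in ZT14d, 15.12 in ZT22a and 14.49 in ZT6c. Livers of the light phase measured 13.06, 13.31, 14.16 and 13.39 at ZT2, 13.53 in ZT6a, and 13.08, 14.35, 13.65 and 13.95 at ZT10. Livers of the dark phase measured 13.56 in ZT14a, 13.98 in ZT14c, 14.09, 13.72 and 13.52 at ZT18, and 13.04, 14.27 and 13.65 in ZT22b to ZT22d. The groups did not overlap, but ZT6c exceeded ZT10b by only 0.14, which is less than the SD within times of 0.85. That SD includes the 5 livers. Without them the SD was 0.29 to 0.62 at the times with more than 1 liver left, also wider than 0.14.

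Of the enzymes, Cyp17a1 measured 11.41 in ZT22a, 11.31 in ZT14d, 11.30 in ZT6c, 10.82 in ZT14b and 9.65 in ZT6b. In the light it measured 5.39, 5.90, 6.93 and 6.87 at ZT2, 7.13 in ZT6a, and 6.91, 6.19, 7.06 and 8.20 at ZT10. In the dark it measured 6.93 in ZT14a, 7.32 in ZT14c, 6.84, 6.87 and 6.86 at ZT18, and 8.10, 6.90 and 7.04 in ZT22b to ZT22d. The 5 livers lay at least 1.45 above the others, a factor of 2.73, and ZT10d and ZT22b were the highest of the rest.

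Got1 measured 16.14 in ZT22a, 15.41 in ZT14b, 15.17 in ZT6b, 15.15 in ZT14d and 15.01 in ZT6c. Livers of the light phase measured 13.63, 13.59, 13.75 and 13.38 at ZT2, 12.75 in ZT6a, and 13.35, 12.54, 13.63 and 13.26 at ZT10. Livers of the dark phase measured 12.94 in ZT14a, 12.73 in ZT14c, 12.15, 12.56 and 11.36 at ZT18, and 13.69, 13.47 and 12.93 in ZT22b to ZT22d. The 5 livers were separate by 1.26, a factor of 2.39, with ZT22a the highest and the 3 livers of ZT18 near the bottom.

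Abhd2 was the most even of the 9 within both sets. It measured 11.84 in ZT14d, 11.82 in ZT14b, 11.70 in ZT22a, 11.58 in ZT6c and 11.48 in ZT6b. In the light it measured 9.09, 9.50, 9.04 and 9.40 at ZT2, 9.25 in ZT6a, and 9.55, 9.76, 9.29 and 9.42 at ZT10. In the dark it measured 9.11 in ZT14a, 9.55 in ZT14c, 9.70, 9.49 and 8.76 at ZT18, and 8.75, 9.50 and 9.18 in ZT22b to ZT22d. The gap of 1.72, a factor of 3.29, was wider than the whole range of the 17 livers, 1.01.

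Gstm3 measured 16.61 in ZT14b, 16.35 in ZT14d, 16.34 in ZT6b, 16.29 in ZT6c and 16.06 in ZT22a. Livers of the light phase measured 14.85, 14.90, 14.90 and 15.14 at ZT2, 14.64 in ZT6a, and 14.13, 14.29, 14.37 and 14.69 at ZT10. Livers of the dark phase measured 13.91 in ZT14a, 14.09 in ZT14c, 14.75, 14.20 and 14.85 at ZT18, and 14.52, 15.11 and 15.06 in ZT22b to ZT22d. The 5 livers were separate by 0.92, and among the 17 the values were mostly higher at ZT2 and ZT22 and lower at ZT10 and ZT14.

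Cib3 varied widely in all livers. It measured 10.70 in ZT6b, 9.71 in ZT14b, 9.40 in ZT22a, 9.08 in ZT14d and 9.02 in ZT6c. In the light it measured 6.37, 5.52, 8.43 and 8.08 at ZT2, 4.13 in ZT6a, and 6.68, 7.36, 7.02 and 7.05 at ZT10. In the dark it measured 5.87 in ZT14a, 7.12 in ZT14c, 7.98, 7.18 and 6.44 at ZT18, and 6.72, 8.26 and 8.14 in ZT22b to ZT22d. The gap was 0.59 beside a range of 4.30 among the 17, and the lowest and the highest value of all 22 livers were both at ZT6.

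Mmd2 overlapped between the sets. It measured 8.84 in ZT6c, 8.39 in ZT22a, 8.12 in ZT14b, 7.85 in ZT14d and 5.66 in ZT6b. Livers of the light phase measured 4.19, 3.91, 4.49 and 4.98 at ZT2, 4.66 in ZT6a, and 4.55, 3.76, 4.68 and 4.49 at ZT10. Livers of the dark phase measured 4.17 in ZT14a, 4.19 in ZT14c, 4.57, 4.17 and 4.24 at ZT18, and 3.89, 5.74 and 4.28 in ZT22b to ZT22d. ZT6b lay just below ZT22c, while the other 4 high livers lay at 7.85 or above. The median of the 17 livers was 4.28, little above background.

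Vcam1 overlapped too. It measured 9.26 in ZT14b, 8.55 in ZT14d, 7.90 in ZT6b, 7.72 in ZT22a and 7.24 in ZT6c. In the light it measured 5.56, 5.99, 5.70 and 4.80 at ZT2, 5.64 in ZT6a, and 6.18, 7.02, 6.78 and 6.61 at ZT10. In the dark it measured 6.00 in ZT14a, 6.69 in ZT14c, 6.61, 7.58 and 6.40 at ZT18, and 5.95, 5.65 and 5.71 in ZT22b to ZT22d. ZT6c lay below ZT18b, although within ZT6 it was 1.60 above ZT6a.

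**Figure D1:**
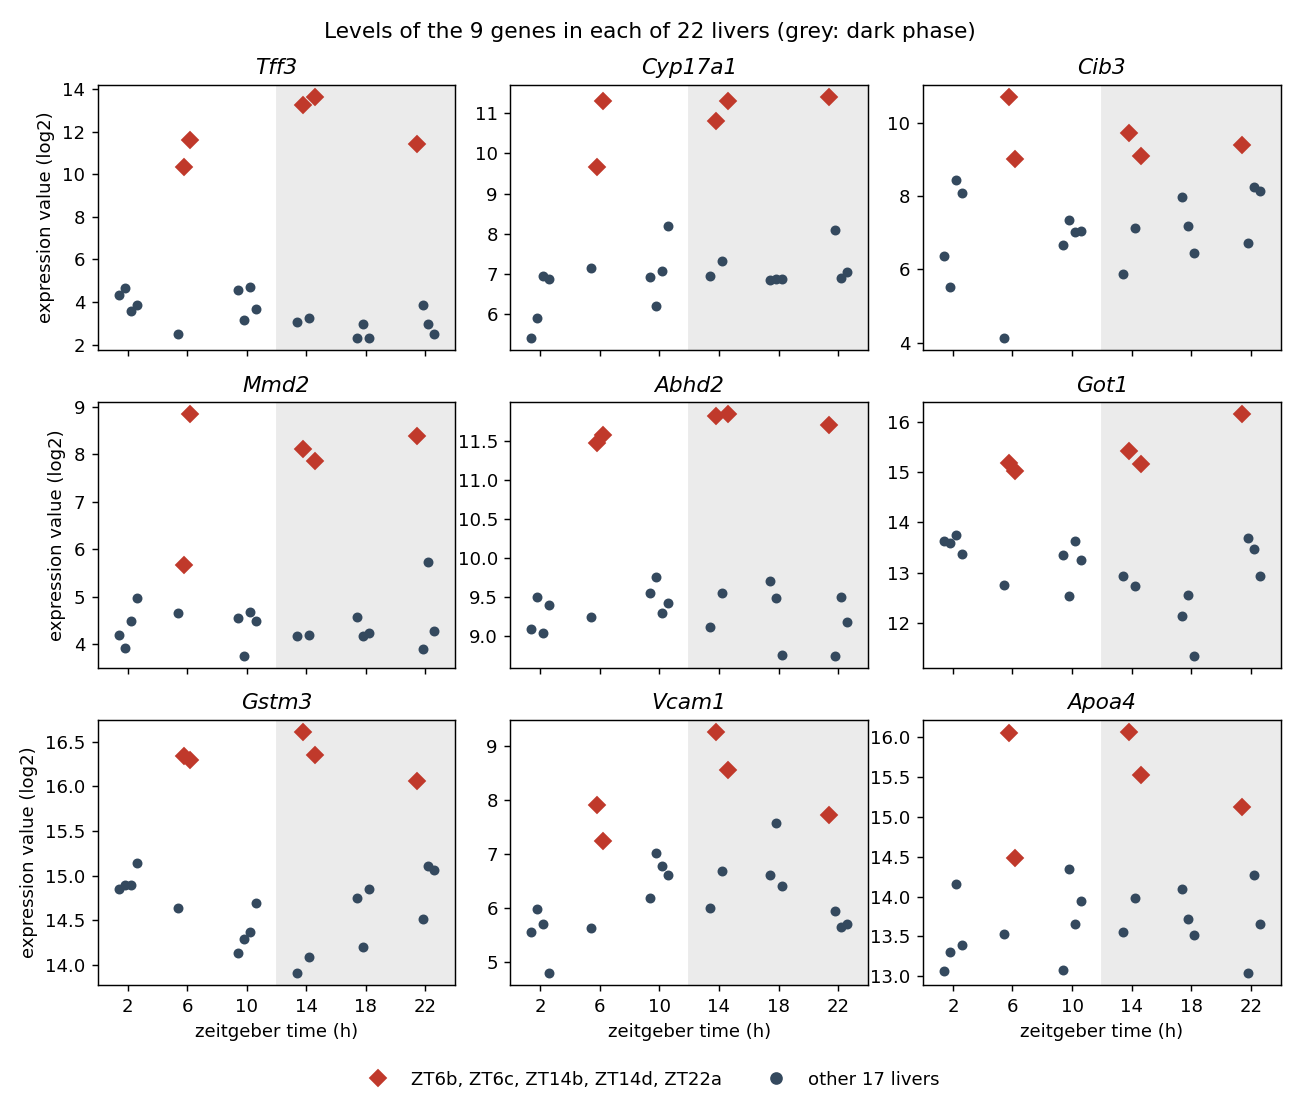
Each panel plots the log2 value of a gene (vertical axis) against zeitgeber time in hours (horizontal axis), 1 point a liver, livers of a time spread sideways and the dark phase in grey. The 5 livers drawn as red diamonds lie above the other livers of their time for all 9 genes, and in the panels of Mmd2 and Vcam1 they overlap livers of other times.

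Against all 17 other livers, 7 of the 9 genes did not overlap, a pattern that 0.378% of all features showed (84 of 22206). Against the other livers of the same time, all 9 were higher, as were 4.76% of all features, while 3.64% were lower. The genes were picked for this pattern, so nothing is read from these counts. The 5 livers did not rank the same way for each gene. ZT14b was highest for Gstm3, Vcam1 and Apoa4, ZT14d for Tff3 and Abhd2, ZT22a for Cyp17a1 and Got1, ZT6b for Cib3 and ZT6c for Mmd2. The lowest of the 5 was ZT6b for Tff3, Cyp17a1, Mmd2 and Abhd2, ZT6c for Cib3, Got1, Vcam1 and Apoa4, and ZT22a for Gstm3.

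Correlations between the genes were taken on deviations from the mean of each time, and the points share their arrays. Over 22 livers the median of the 36 pairwise Pearson correlations was 0.84, from 0.64 (Mmd2 with Apoa4) to 0.95 (Tff3 with Got1). Spearman's rho had a median of 0.76. Among 9956 named genes above the median level, the median pairwise r was 0.03. In the 11 livers of ZT2, ZT10 and ZT18, where no liver has high Tff3, the median fell to 0.15, with 21 pairs above 0 and 15 below. Cib3 with Apoa4 had r of 0.65 (rho 0.79) there, Cyp17a1 with Mmd2 0.65 (rho 0.51) and Tff3 with Got1 0.64 (rho 0.33). Mmd2 measured only 3.76 to 4.98 in these livers, near or little above background, and Tff3 was near background. Tff3 with Apoa4, which had r of 0.74 over 22 livers, stood at -0.75 there, at Tff3 levels near background. In the 17 livers the median was 0.13, Cib3 with Apoa4 was highest at 0.71 and Tff3 with Apoa4 lowest at -0.70. The strong correlation among the 9 genes thus rested on the 5 livers, which the choice of genes used.

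**Figure D2:**
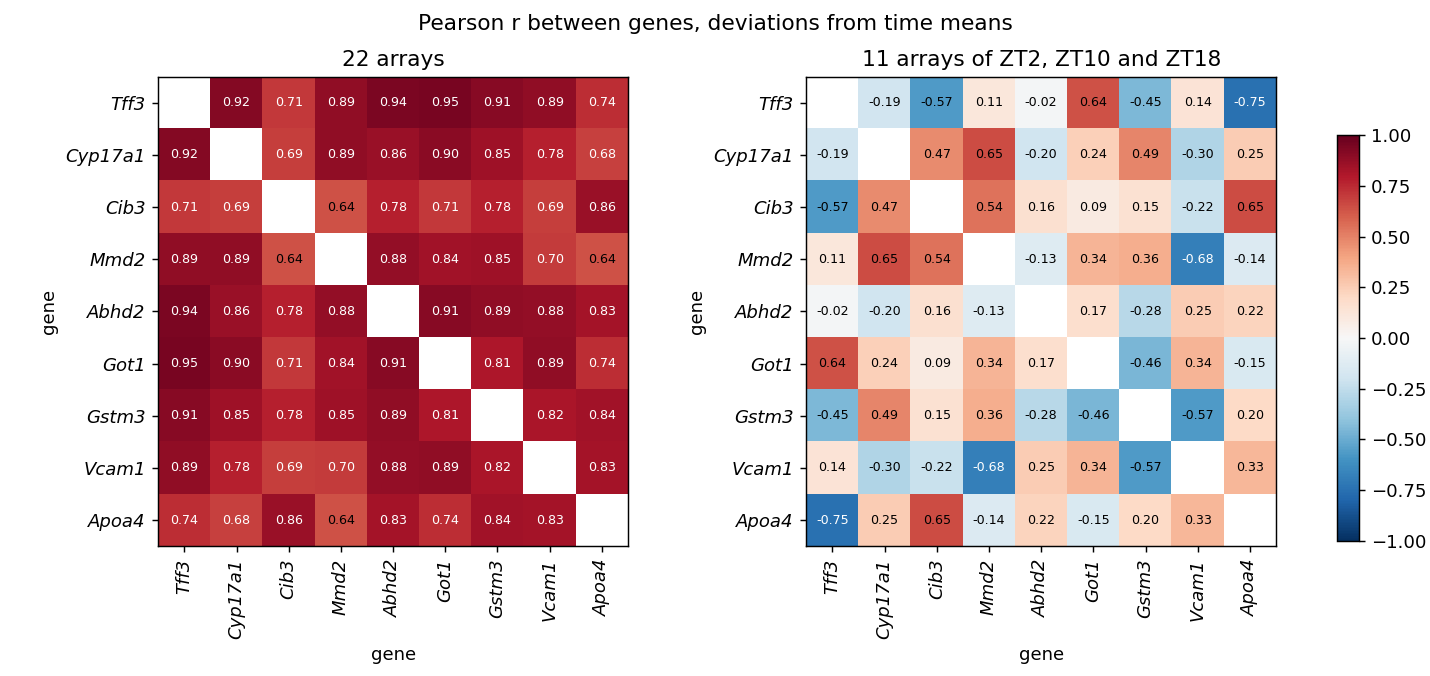
Both maps give Pearson's r (colour and printed value) for each pair of the 9 genes on both axes, from deviations from the time means. All 36 pairs are positive over 22 livers (left, median 0.84), and the signs are mixed in the 11 livers of ZT2, ZT10 and ZT18 (right, median 0.15).

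Whether the genes follow the time of day was tested with limma across all 22206 features. A difference among the 6 time means was called for 0 of the 9 at an adjusted p of 0.05, beside 6.14% of all features. The lowest adjusted p were 0.156 for Cyp17a1, 0.181 for Vcam1 and 0.193 for Got1. At an unadjusted p under 0.05 there were 3 of 9 and 4405 of 22206 features. A 24 h rhythm, fitted as a cosine and a sine, was called for 0 of 9 beside 7.62% of features, with 1 of 9 and 4688 features at an unadjusted p under 0.05. Vcam1 came closest, with an adjusted p of 0.0921. It was called when ZT6b (0.0429), ZT14a (0.0391) or ZT22a (0.0388) was left out, and its difference among times when ZT14a was left out (0.0441).

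The light minus dark difference, between the averages of the 3 light and the 3 dark times, was called for 0 of 9. Over all features 2.02% were called with the light phase higher and 3.25% with the dark phase higher. At an unadjusted p under 0.05 there were 0 of 9 and 4252 features. For Tff3 the means were 5.43 in the light and 5.34 in the dark, a difference of 0.09 ± 1.28 (SE, n = 22). For Vcam1 they were 6.36 and 6.92, a difference of -0.55 ± 0.34 (adjusted p = 0.409). For Got1 they were 13.70 and 13.38, a difference of 0.32 ± 0.37 (adjusted p = 0.711). Between 58.7% (Cyp17a1) and 90.2% (Cib3) of the members' sum of squares lay within times, beside a median of 70.6% over all features.

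The time means carried the high livers. Tff3 averaged 8.15 ± 4.94 (SD, n = 3) at ZT6, 8.30 ± 5.94 (n = 4) at ZT14 and 5.18 ± 4.20 (n = 4) at ZT22. It averaged 4.10 ± 0.47 (n = 4) at ZT2, 4.04 ± 0.74 (n = 4) at ZT10 and 2.54 ± 0.38 (n = 3) at ZT18. SD as large as these differences stood at the times that held the 5 livers.

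Without the 5 livers the same tests were repeated on 17, which leaves 1 liver at ZT6 and 2 at ZT14. Leaving out livers by the level of these genes also removes spread from them, so these fits are an alternative and support nothing. A difference among times was then called for Tff3, Got1 and Vcam1, 3 of 9 beside 4.58% of features. A 24 h rhythm was called for Gstm3 and Vcam1, 2 of 9 beside 5.88%. Light and dark differed for 0 of 9, beside 1.19% of features with the light phase higher and 1.59% with the dark phase higher. At an unadjusted p under 0.05 these 17 livers gave 5 of 9 genes and 4141 of 22206 features for a difference among times, 4 and 4308 for a rhythm, and 3 and 3663 for light and dark.

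Got1 (adjusted p = 0.016) averaged 13.59 ± 0.15 (SD, n = 4) at ZT2 and 12.02 ± 0.61 (n = 3) at ZT18. All 3 livers of ZT18 lay below all 4 of ZT2. Vcam1 averaged 5.51 ± 0.51 (n = 4) at ZT2 and 6.65 ± 0.35 (n = 4) at ZT10. It averaged 6.86 ± 0.63 (n = 3) at ZT18 and 5.77 ± 0.16 (n = 3) at ZT22. Its fitted rhythm peaked at ZT14.3 with a fold of 2.56 from trough to peak, and only 2 livers remained at ZT14. The fitted rhythm of Gstm3 peaked at ZT0.786 with a fold of 1.75. Gstm3 averaged 14.95 ± 0.13 (n = 4) at ZT2 and 14.37 ± 0.24 (n = 4) at ZT10. Tff3 differed only among values from 2.31 to 4.73, most of them at background. Its mean was 4.10 at ZT2 and 2.54 at ZT18.

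The other genes whose deviations followed the mean profile of the members over 22 livers were found by rule among 18533 genes. Esm1 and Sytl5 had r of 0.93, Grk3 0.92, Fads2, Fads1, Itih2 and Elovl2 0.91, Rasgef1b and BC005537 0.90 and Mbl2 0.89. Esm1, which encodes a secreted proteoglycan of endothelium, measured 5.47 to 7.26 in the 5 livers and 2.89 to 4.43 in the 17, and it was also the gene most like Tff3 (r = 0.96). Fads1 and Fads2 encode the desaturases and Elovl2 an elongase of polyunsaturated fatty acid synthesis. Fads1 measured 15.69 to 16.27 in the 5 and 14.52 to 15.35 in the 17, and Elovl2 had medians of 18.17 and 17.42. Fads2 measured 18.23 to 18.98 and 16.69 to 18.61, so its sets overlapped. Fads2 was called both for a difference among times (adjusted p = 0.0218) and for a 24 h rhythm (adjusted p = 0.00528). Next to Esm1, the genes most like Tff3 were Agxt, Acmsd and Fads1 with r of 0.92 and Sytl5 with 0.91. Agxt encodes an aminotransferase of glyoxylate and Acmsd an enzyme of tryptophan breakdown.

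The genes most opposed to the members were cytochrome P450 genes. Cyp2c54 (r = -0.98) measured 11.56 to 12.51 in the 5 livers and 14.29 to 15.57 in the 17. Cyp2c50 (r = -0.97) measured 14.67 to 15.33 and 16.76 to 17.66, and Cyp2c37 (r = -0.96) 11 to 12.55 and 13.70 to 15.61. For each of these 3 close relatives of the Cyp2c family the 5 livers were the lowest of all. Whether probes of such relatives share signal was not tested. Cyp27a1, a sterol hydroxylase of bile acid synthesis, measured 15.30 to 15.49 and 15.70 to 16.13 (r = -0.92), and Cyp2d40 had the same r.

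In the 11 livers of ZT2, ZT10 and ZT18, the likeness to the member profile was 0.03 for Esm1, 0.08 for Fads1 and 0.06 for Mbl2. Esm1 was near background in the 17 livers, with a median of 3.75, which limits its value here. The likeness was 0.65 for Sytl5, 0.53 for Fads2 and 0.51 for Grk3. For the other 4 most like genes it ranged from -0.01 (BC005537) to 0.45 (Itih2). For the opposed genes it was -0.82 for Cyp2c37, -0.58 for Cyp2c54, -0.33 for Cyp2d40, -0.28 for Cyp2c50 and -0.11 for Cyp27a1. These genes were ranked on the 22 livers, and the values are a description over livers that the rule shares.

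**Figure D3:**
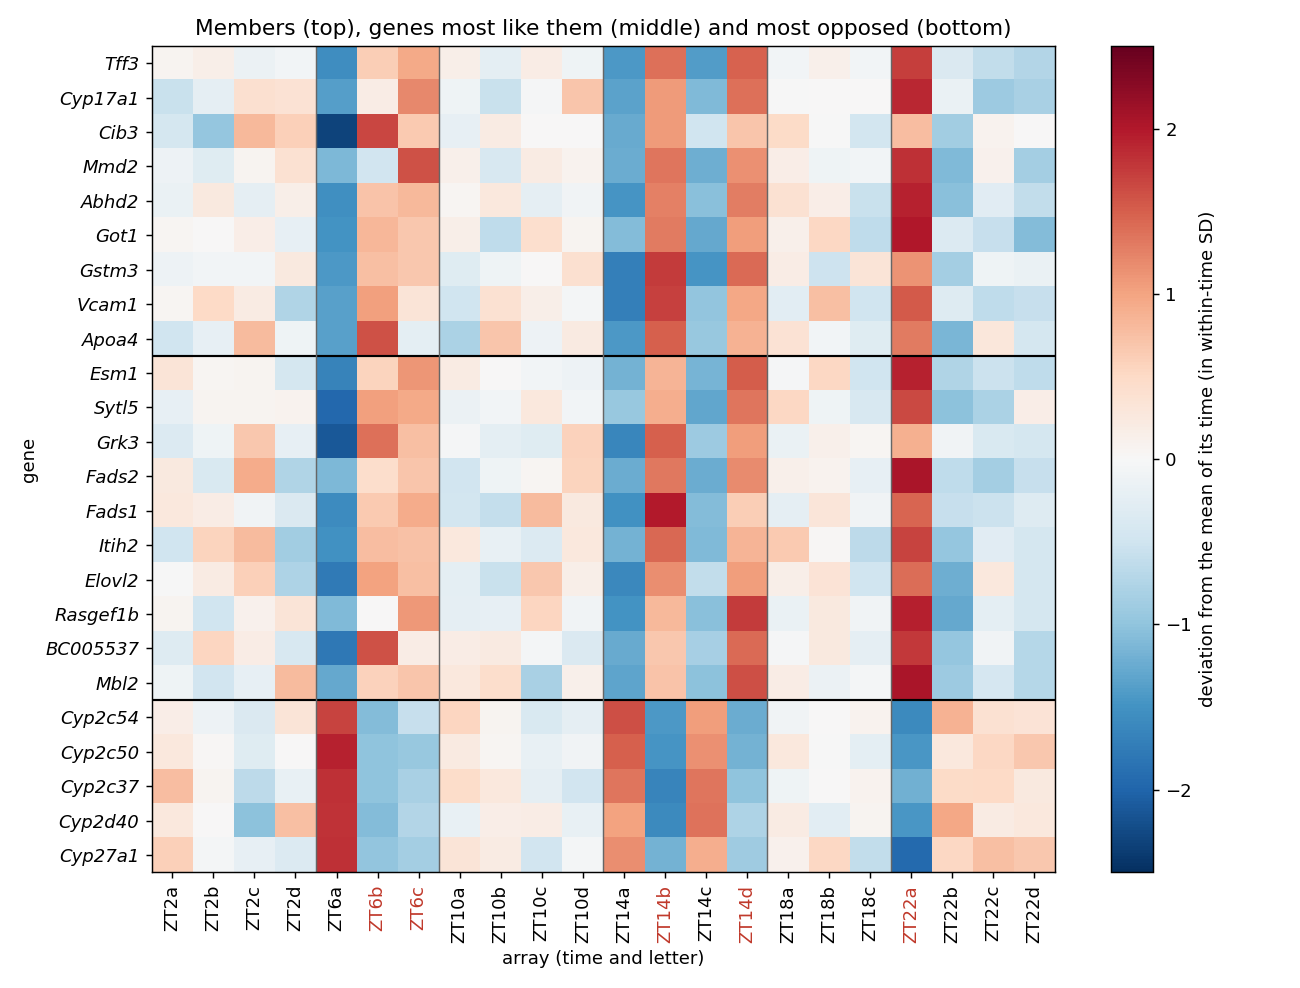
Each row is a gene and each column a liver, and the colour gives the deviation of its log2 value from the mean of its time in units of the gene's SD within times. The 5 livers named in red are mostly red for the members and the 10 genes most like them and blue for the 5 most opposed, while the columns of ZT2, ZT10 and ZT18 are pale and mixed.

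Relatives and pathway partners of the members are given by counts of the genes called in the tests above and of those with the 5 livers outside the others of their time. Genes other than those of lowest adjusted p in a list were named after their values were seen. The counts stand beside these shares of all features: 6.14% called for a difference among times and 7.62% for a rhythm. Light and dark calls made up 2.02% (light higher) and 3.25% (dark higher). The 5 livers were above the others of their time for 4.76% and below for 3.64%. The shares apply to the cell type markers too. The other trefoil and mucus-cell genes did not follow Tff3: of 15 measured, 0 were called in any test and 0 had the 5 livers above or below the rest. Tff1 measured 2.79 to 3.87 and Tff2 3.57 to 4.15 in the 5 livers, near background. The median light minus dark difference of the 15 was 0.11, beside 0.01 over all features.

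Of 19 other genes of steroid hormone synthesis, 4 were called for a difference among times and 3 for a rhythm. Over all features 6.14% and 7.62% were called. Hsd17b2, which inactivates sex steroids, was called higher in the light (0.60 ± 0.17, SE, adjusted p = 0.0437), and 0 were higher in the dark. Hsd17b6 alone was above the others of its time in the 5 livers, and 7 genes were below, beside 4.76% and 3.64% of all features. Of the 7, Cyp11b1 (3.60 to 3.97 in the 5) was near background. Hsd17b1 (4.01 to 4.69) and Nr5a1 (4.05 to 4.64) were little above it. The widest of the 7 was Hsd3b5, a male-biased hydroxysteroid dehydrogenase of liver, at 11.36 to 14.50 in the 5 and 14.04 to 17.08 in the 17. Fdx1, an electron donor to mitochondrial P450 enzymes, measured 12.10 to 12.46 and 12.03 to 13.23. Star and Cyp11a1, which start steroid synthesis, measured 2.75 to 3.69 and 1.89 to 2.99 in the 5 livers, near background. The list's median light minus dark difference was 0.05.

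Of 27 other sex-biased liver genes, 5 were called for a difference among times and 3 for a rhythm, Elovl3, Cyp2a4 and Trim24. Elovl3, a fatty acid elongase gene, had a fold of 58.8 from trough to peak and a peak at ZT23.5 (adjusted p = 3.49e-12). Cyp2a4 was higher in the dark (-1.79 ± 0.29, adjusted p = 0.000364). Socs2 and Igf1 were above the others of their time in the 5 livers, and 6 genes were below, among them Hsd3b5, Cyp2d9 and Slco1a1. Over all features 4.76% were above and 3.64% below. Of the 6, Cyp2b9 (3.20 to 4.16 in the 5) and Acsm2 (3.52 to 4.10) were near background. The list's median light minus dark difference was -0.04.

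Of 11 other genes of aspartate metabolism and the malate-aspartate shuttle, Gpt2 and Mdh2 were called for both a difference among times and a rhythm. Gpt2, an alanine aminotransferase, and Mdh2, the mitochondrial malate dehydrogenase, were higher in the dark, by 0.67 ± 0.12 and 0.57 ± 0.12 (SE, adjusted p = 0.00129 and 0.00441), as was Slc25a12. Asns and Gpt2 were above the others of their time in the 5 livers, and 0 genes were below. Asns, which makes asparagine from aspartate, measured 9.96 to 10.71 in the 5 livers and 6.90 to 9.30 in the 17. The mitochondrial partner of Got1, Got2, measured 16.86 to 17.36 and 16.58 to 17.19. The list's median difference was -0.16.

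Of 22 genes of the amino acid response, 8 were called for a difference among times and 7 for a rhythm. Trib3 and Cbs were higher in the light and Gpt2 and Slc3a2 in the dark. The 5 livers were above the others of their time for 7 (Atf5, Asns, Chac1, Cth, Cbs, Gpt2 and Fgf21) and below for Herpud1. Among all features 4.76% were above and 3.64% below. Chac1 (3.95 to 4.40 in the 5) and Fgf21 (3.33 to 4.24 in the 17) were near background. Cbs, an enzyme of cysteine synthesis, measured 14.92 to 16.02 in the 5 and 13.97 to 15.84 in the 17. The transcript of the factor itself, Atf4, measured 12.68 to 13.04 and 11.91 to 13.57. The list's median difference was -0.09.

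Of the 6 other mu class glutathione S-transferases, Gstm1, Gstm2, Gstm4 and Gstm7 were above the others of their time in the 5 livers and 0 were below. Over all features 4.76% were above and 3.64% below. Gstm4 was called for a difference among times (adjusted p = 0.00364), a rhythm and a higher level in the light (0.55 ± 0.13, SE, adjusted p = 0.012). Gstm6 and Gstm7 were called for a rhythm. Gstm1 measured 19.01 to 19.32 in the 5 livers and 18.58 to 19.10 in the 17. Whether the close relatives share probe signal was not tested. Of 14 other glutathione S-transferases, 4 were called for a difference among times and Gstt1 and Gstt3 for a rhythm and a higher level in the dark, and Gsta4, Gstk1 and Mgst3 were above in the 5 livers. The median differences were 0.08 and -0.16.

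Of 21 other genes of the fasting response and of the factor CREB3L3, 8 were called for a difference among times and 8 for a rhythm. Over all features 6.14% and 7.62% were called. Lpin1, G0s2 and Plin2, which act in lipid storage, were among the genes called. G0s2 was higher in the dark (-2.07 ± 0.32, SE, adjusted p = 0.000258) and Angptl4 in the light. The 5 livers were above the others of their time for Fgf21, Cpt1a and Fabp4 and below for Cidea and Mogat1. Fgf21 was near background in the 17, at 3.33 to 4.24. Cidea measured 2.57 to 3.13 in the 5 and 2.92 to 3.78 in the 17, at background, where an order has no meaning. Creb3l3 measured 13.03 to 13.65 in the 5 and 12.90 to 13.98 in the 17. The other 14 apolipoprotein and lipoprotein genes did not follow Apoa4, with the 5 livers above for 0 and below for 0, and Apon was the 1 called for a rhythm. The median differences were -0.03 and -0.04.

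Among 13 other adhesion genes, Cdh5, the cadherin of endothelial junctions, was called for a difference among times (adjusted p = 0.049) and a rhythm. Pecam1 and Mcam were above the others of their time in the 5 livers, and Itgb7 was below. Of 10 other genes of the family of Mmd2, 0 were called for a difference among times, Paqr7 and Paqr9 were called for a rhythm and Paqr7 for a higher level in the dark. The adiponectin receptor Adipor1 measured 12.51 to 12.96 in the 5 livers and 11.91 to 12.99 in the 17, above the others of their time, and Adipor2 measured 14.80 to 15.72 and 15.24 to 16.13. Paqr7 was below, as were Mmd at 2.30 to 2.66 and Paqr5 at 3.16 to 3.40 in the 5 livers, both at background, where an order has no meaning.

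Of 18 other ABHD genes, Abhd6 and Abhd17b were called for a difference among times, Abhd17b and Abhd17c for a rhythm and Abhd6, a monoacylglycerol hydrolase, for a higher level in the dark. Abhd14b and Abhd17c were above in the 5 livers and Abhd6 was below. The 2 other measured CIB genes were not called and not set apart. The median differences were 0.01 for the adhesion genes, -0.11 for the family of Mmd2, 0.01 for the ABHD genes and 0.14 for the CIB genes.

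The core clock gives the scale of the time tests. All 18 measured clock genes were called for a difference among times and for a rhythm. Dbp had a fold of 348 from trough to peak, Nr1d1 118 and Arntl 33.7. The light phase was higher for 3 clock genes and the dark phase for 7, with a median difference of -0.39. The 5 livers were above the others of their time for 0 of the 18 and below for Hlf.

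Markers of other cells were read beside the members, since Tff3 and Vcam1 are known from cells other than hepatocytes. The 18 intestinal and goblet cell markers summed to 11.39 to 12.22 in the 5 livers and 11.09 to 12.40 in the 17. Of these markers 0 were above and 0 below the others of their time, and 6 had a median at background. Most of the sum was Fabp2, at 11.13 to 12.09 in the 5 and 10.75 to 12.28 in the 17. The sum therefore says little about the other markers. Pancreatic acinar markers summed to 7.71 to 8.29 and 7.70 to 8.97, and bile duct markers to 13.25 to 14.54 and 11.90 to 14.57. Adrenal markers summed to 12.97 to 13.11 and 12.88 to 13.76, most of it Fdx1 and Scarb1. Within times the bile duct sum moved with the members. It was 14.24 and 13.68 in the high livers of ZT6 against 12.43 in ZT6a, 13.35 and 13.25 against 11.98 and 12.34 at ZT14, and 14.54 in ZT22a against 12.80 to 13.87. Most of this sum was Tm4sf4 and Onecut1. Of the 10 bile duct markers Tm4sf4 was above, at 12.77 to 13.56 in the 5 and 11.25 to 12.69 in the 17. Onecut1 measured 10.34 to 14.01 and 7.65 to 14.12, and Krt7 5.32 to 5.92 and 5.27 to 6.11, neither of them above or below. Krt19, a defining keratin of bile duct cells, was below at 3.47 to 3.92 in the 5, near background. Of the 10 adrenal markers Cyp11b1 and Nr5a1 were below, both at or little above background. Of 9 acinar and 9 lymphocyte and 9 neutrophil markers 0 were above or below, and of 8 kidney markers Aqp2 was above at 2.85 to 3.24, at background.

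Sinusoidal endothelial markers summed to 13.07 to 13.69 in the 5 livers and 13.09 to 14.01 in the 17, with Lyve1 and Pecam1 of 10 above the others of their time. Kupffer cell markers summed to 10.95 to 11.45 and 10.42 to 11.74, with Cd5l of 10 above. Stellate cell markers summed to 14.12 to 15.38 and 13.94 to 15.08, with Col3a1 and Pdgfrb of 9 above. Lymphocyte markers summed to 8.80 to 9.20 and 8.48 to 9.22, neutrophil markers to 7.10 to 7.96 and 7.25 to 7.77, and kidney markers to 7.73 to 8.09 and 7.55 to 8.33. Adipocyte markers summed to 17.17 to 18.09 and 15.15 to 17.99, most of it Pck1, which hepatocytes express too. Within times this sum moved with the members as well. It was 17.17 and 17.92 in the high livers of ZT6 against 16.77 in ZT6a, 18.03 and 18.09 against 16.79 and 16.66 at ZT14, and 17.29 in ZT22a against 15.15 to 15.72. Of the 8 adipocyte markers Fabp4 and Pck1 were above and Cidea, at background, below. Of the 9 hepatocyte markers Cps1 was above and Serpina1a and Cyp2e1 below. Over all times the summed level of each list in the 5 livers overlapped that in the 17, although the highest stellate, neutrophil and adipocyte sums and the lowest hepatocyte, neutrophil and sinusoidal endothelial sums were among the 5. Within times the 5 livers had the higher sum in 2 of the 12 lists, those of bile duct and adipocytes, and the lower sum in 0. The stellate sum was higher at ZT6 and ZT14 too, but ZT22a, at 15.07, lay just below ZT22c at 15.08. Kupffer cell and lymphocyte sums were also higher, and adrenal and intestinal sums lower, at ZT6 and ZT14 but not at ZT22. The part of other cells in the levels of the 9 genes was not tested.

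**Figure D4:**
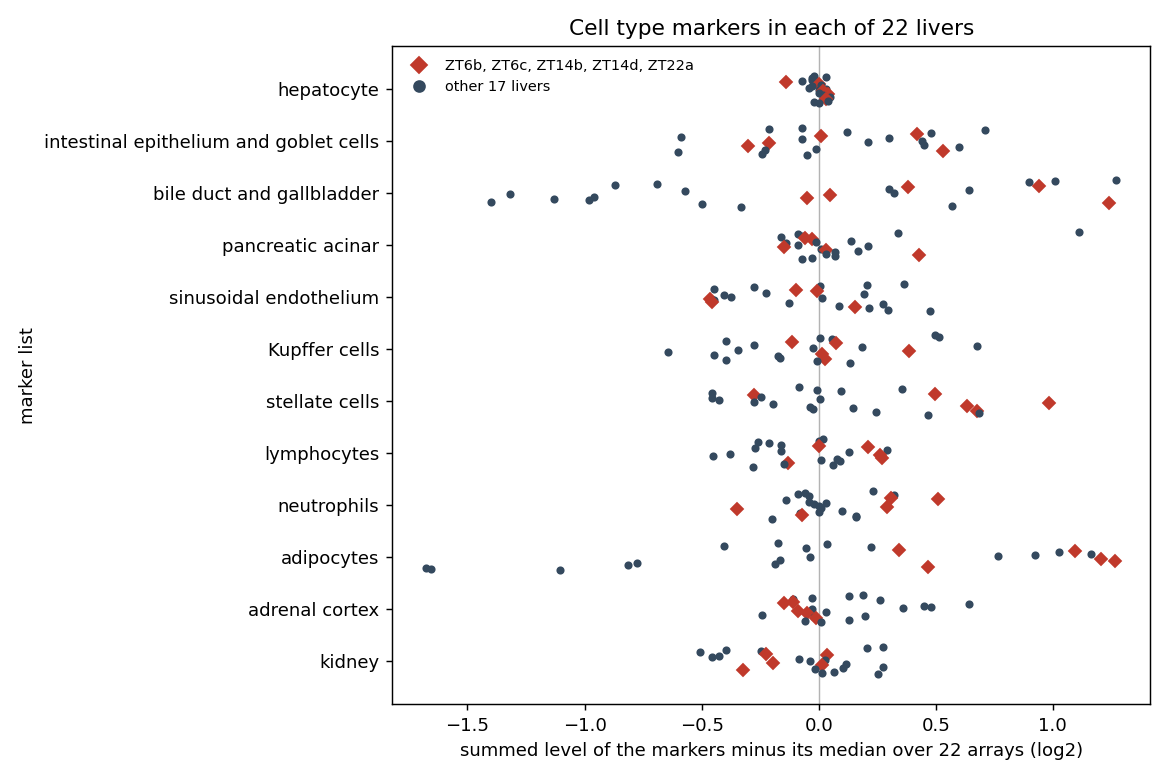
Each row is a list of cell type markers and each point a liver. The horizontal axis gives the summed log2 level of the list minus its median over 22 livers, and the 5 livers drawn as red diamonds overlap the other 17 in each row, with most of them in the upper part for the bile duct, stellate cell and adipocyte lists. Compared with livers of the same time only, the bile duct and adipocyte sums are higher in all 5. Most of the bile duct sum is Onecut1 and Tm4sf4, and most of the adipocyte sum is Pck1. An example of overlap is the intestinal list, at 11.39 to 12.22 beside 11.09 to 12.40, most of it Fabp2.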

How the data were processed

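TRIzol extracts of whole liver (100 ng RNA each) were labelled with the WT Plus kit for Clariom S arrays, per the labels' protocols. The deposited values were read as log2 from their range; the authors' normalization, software and build: not given in the sources used here. No detection calls were used. Genes were named through the array annotation and RefSeq gene IDs; each member had 1 feature.

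R 4.3.3 with limma 3.58.1 (lmFit, eBayes) was run on all 22206 features with no filter, with Benjamini-Hochberg adjustment over all of them and a threshold of 0.05: an F test among 6 time means, an F test of cosine and sine terms of 24 h, and light minus dark. The fit was checked on simulated data. A fold from trough to peak is the antilog of the fitted cosine's full height. Summed marker levels are log2 of summed linear values.

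Members and lists were chosen with earlier results of these data known. Genes named were the members, Adipoq, up to 3 non-members of lowest adjusted p called in each list, the 10 most like and 5 most opposed to the member profile (the mean of the standardised deviations of the 8 members other than Tff3), and the 5 most like Tff3; others are said to be chosen after their values were seen. Replicate letters were not taken as pairs: same-letter arrays had a median correlation of residuals of 0.0 (51 pairs, -0.24 to 0.23), like different letters (150 pairs, median 0.0). Arrays have no read depth, and their number limits precision. Alternatives were quantile normalization, median centring, brighter features only, a trended robust prior, array weights, the letter as a block, ranks, a threshold of 0.01, leaving out each array, and leaving out the 5 arrays with high Tff3.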

Additional observations from a re-analysis of the deposited data

Results flagged for a closer look

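In groups of 4 livers, 1 liver stood far from the other 3 by Dixon's ratio (critical value 0.829) in 13 of the 200 groups tested over 50 genes, where chance gives about 1 in 20. The members and the genes like them were picked for this pattern, and 8 of the 13 were ZT22a, the 1 high liver of its time. Among the members, Tff3 measured 11.42 in ZT22a and 2.5 to 3.84 in the other 3 livers, and Vcam1 7.72 against 5.65 to 5.95.

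Among genes like or opposed to them, ZT22a measured 6.73 for Esm1 (others 3.61 to 3.88), 18.53 for Fads2 (17.21 to 17.33), 16.02 for Fads1 (15.16 to 15.26), 15.70 for Mbl2 (14.32 to 14.55), 12.55 for Cyp2c37 (14.29 to 14.58) and 15.49 for Cyp27a1 (16.07 to 16.13). Sytl5 measured 4.95 in ZT2a beside 5.28 to 5.30. Among list genes, Hsd3b5 measured 15.83 in ZT2d (16.98 to 17.08), Lpin1 11.30 in ZT22d (9.56 to 9.75), G0s2 9.14 in ZT2b (10.04 to 10.11) and Arntl 10.77 in ZT2c (10.01 to 10.10).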

How the results depend on the processing

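For the 9 genes, 273 of 278 gene and setting combinations kept the side of the threshold for a difference among times and 272 of 278 for a 24 h rhythm, and the rest passed it. With array weights 1 gene was called for a difference among times (Got1, adjusted p = 0.0436) and 1 for a rhythm (Vcam1, 0.0296). Without the 5 livers of high Tff3 there were 3 and 2. Leaving out each liver in turn gave 0 to 1 for each of these tests and 0 for light and dark. Features called for a difference among times fell from 1363 to 0 with ranks over arrays and 668 at a threshold of 0.01. Those for a rhythm fell from 1691 to 1065 and 830. Those for light and dark fell from 1170 to 603 and 459, and to 617 without the 5 livers. The median correlation between the genes moved from 0.84 to 0.15 (11 livers of ZT2, ZT10 and ZT18; Spearman 0.14) and to 0.13 (17 livers; Spearman 0.16).

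No light minus dark difference of a member was called under any setting, and 27 of 278 turned their sign. Without the 5 livers Mmd2 was at 0.09 and Abhd2 at 0.07, with ranks Mmd2 was at 0.93 rank units, and with array weights Gstm3 was at -0.06. Leaving out each liver in turn moved Tff3 from -0.49 to 1.03, Cib3 from -0.86 to 0.24, Mmd2 from -0.69 to 0.03, Abhd2 from -0.21 to 0.20 and Gstm3 from -0.13 to 0.20. The cause was not tested. With the replicate letter as a block, 1169 features were called for a difference among times, 1527 for a rhythm and 1067 for light and dark, and the block changed no member's call. Signal near or little above background limits Tff3, Mmd2 and Esm1 in the 17 livers. Among others, it also limits Tff1, Tff2, Star, Cyp11a1, Cyp11b1, Mmd, Paqr5, Cidea, Chac1, Cyp2b9, Krt19 and Aqp2.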

Other observations

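Some other genes of the lists above had the 5 livers wholly outside the 17, and they were singled out after their values were seen. Lyve1, a hyaluronan receptor of sinusoidal endothelium, measured 7.6 to 8.63 in the 5 livers and 5.09 to 7.46 in the 17. Tm4sf4, a membrane protein listed with bile duct markers, measured 12.77 to 13.56 and 11.25 to 12.69. Mgst3, a microsomal glutathione S-transferase, measured 8.70 to 8.94 and 6.54 to 8.56. Lyve1 and Tm4sf4 were each the only 1 of the 10 markers of their cell type so placed. Some of the other markers had lower medians in the 5 livers than in the 17, such as Stab2 (8.47 and 8.93) and Krt7 (5.35 and 5.87). Some had higher ones, such as Oit3 (10.49 and 10.19) and Sox9 (7.56 and 7.13). Cyp2e1, a hepatocyte cytochrome P450, was lower at 18.06 to 18.50 and 18.72 to 19.23. Slco1a1, an organic anion transporter with male bias, was lower at 14.83 to 15.95 and 16.11 to 16.82, and Mup3, a major urinary protein gene, at 19.27 to 19.42 and 19.43 to 19.67. These values are a description over livers told apart by Tff3.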
